A study of Mus musculus with 8 samples.

Results

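The transcripts described here encode 10 receptors and membrane-associated proteins by which a quiescent muscle stem cell (MuSC) is recognized and held in its niche. Among them are the calcitonin receptor Calcr, the chemokine receptor Cxcr4 and the EGF-repeat receptor Megf10. The others are the adhesion proteins Cdh15, Vcam1 and Cd34, the lectin-domain protein Chodl, the syndecans Sdc3 and Sdc4 and the signaling inhibitor Spry1. All 10 are a list given by name, with no rule on their values but with earlier results of these data known. The data hold 36047 genes with an annotated transcript, and all 10 passed the filter on low counts that left 17997 genes. RNA came from MuSCs with GFP-labeled nuclei, sorted from 5- to 6-month-old male Pax7-nTnG mice, in which tamoxifen-activated Cre driven by Pax7 switches a Rosa26 reporter from nuclear TdTomato to nuclear GFP, so that every group carried the same alleles and received tamoxifen. The label follows the Pax7 lineage and also stays in descendants of a labeled cell. For 8 weeks, 3 mice received a custom diet without vitamin A (VA-free) and 2 mice stayed on normal chow (control). Lack of vitamin A therefore cannot be told apart from any other difference between the custom diet and chow. MuSCs of the quadriceps and gastrocnemius muscles were sorted, and 8 libraries were sequenced, named here by mouse and technical letter. The VA-free diet has libraries 1B, 2A, 3A and 3B. On the control diet they are 1A, 1B, 2A and 2B.

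A MuSC lies between the basal lamina and the plasma membrane of a myofiber. Receptors on its surface read signals of that niche: collagen V made by the MuSC engages Calcr and holds the cell in quiescence, M-cadherin (Cdh15) and N-cadherin join it to the myofiber, syndecans present growth factors and matrix proteins, and Cxcr4 responds to the chemokine Cxcl12. Spry1 acts inside the cell, where it dampens fibroblast growth factor (FGF) receptor signaling. Vitamin A is the dietary precursor of retinoic acid, the ligand of nuclear receptors that bind DNA.

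The libraries held 44831232 to 88650428 estimated counts, so counting error was small for all 10 transcripts. The technical libraries of control mouse 2 differed more than those of the other mice (chi-square per degree of freedom 593 between 2A and 2B, against 51.6 for control mouse 1 and 10.6 for VA-free mouse 3). Markers of other cells were present in both diets and stood higher in the control libraries. The summed level of 12 endothelial markers was 300 to 391 CPM, counts scaled to library size, in the VA-free libraries and 1290 to 3528 CPM in the control libraries, and all 12 fell on the VA-free diet. For 6 tenocyte markers the sum was 38.3 to 63.6 CPM against 669 to 1165 CPM, with 5 lower, and for 11 leukocyte markers 22.6 to 114 CPM against 186 to 863 CPM, with 7 lower. For 7 Schwann cell markers the sum was 480 to 507 CPM against 1018 to 1300 CPM, with 6 lower, and for 8 markers of pericytes and smooth muscle 1551 to 1828 CPM against 2520 to 3017 CPM, with 4 lower and Notch3 higher. Markers of myofibers summed to 330 to 425 CPM against 458 to 548 CPM, with 5 of 10 lower. The sum of 10 markers of fibro-adipogenic progenitors went the other way, 16789 to 19090 CPM against 8684 to 15084 CPM. Col3a1 and Gsn made up most of it, whereas 6 of them, Ly6a, Dcn and Lum included, were lower. No marker tested was at 0 in every library of a diet. In sorted bulk RNA a smaller share of other cells and more RNA per MuSC cannot be told apart. The part of other cells in the results on the receptors, their ligands and their partners was not tested.

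On the VA-free diet 8 of the 10 transcripts rose: Cdh15, Megf10, Calcr, Sdc4, Sdc3, Vcam1, Spry1 and Cxcr4. None fell, also at an unadjusted p under 0.05 or with DESeq2 or limma-voom, and Chodl and Cd34 did not pass the threshold. Among all 17997 genes 18.9% were called higher and 22.5% lower (edgeR quasi-likelihood test over the mice, two-sided, Benjamini-Hochberg adjustment over all genes, threshold 0.05). The median log2 fold change of the 10 transcripts was 0.83, against 0.003 over all genes. For 9 of the 10 transcripts each VA-free mouse lay above each control mouse, as did 31.0% of all genes, and for 7 each VA-free library lay above each control library, as did 19.9% of all genes. With the authors' TPM in place of counts all 10 were called higher, but 69.0% of all calls then lay on the higher side, against 45.6% with TMM-normalized counts, and the median of all genes moved to 0.19 with a pseudocount of 1 and to 0.35 with 0.1. Leaving out control library 2B reduced the number called higher to 5, and the share of all genes called higher to 9.08%. Leaving out 2A gave 7, with 18.0% of all genes. Fold changes below are VA-free over control, and CPM are scaled by TMM, which takes most genes as unchanged.

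**Figure D1:**
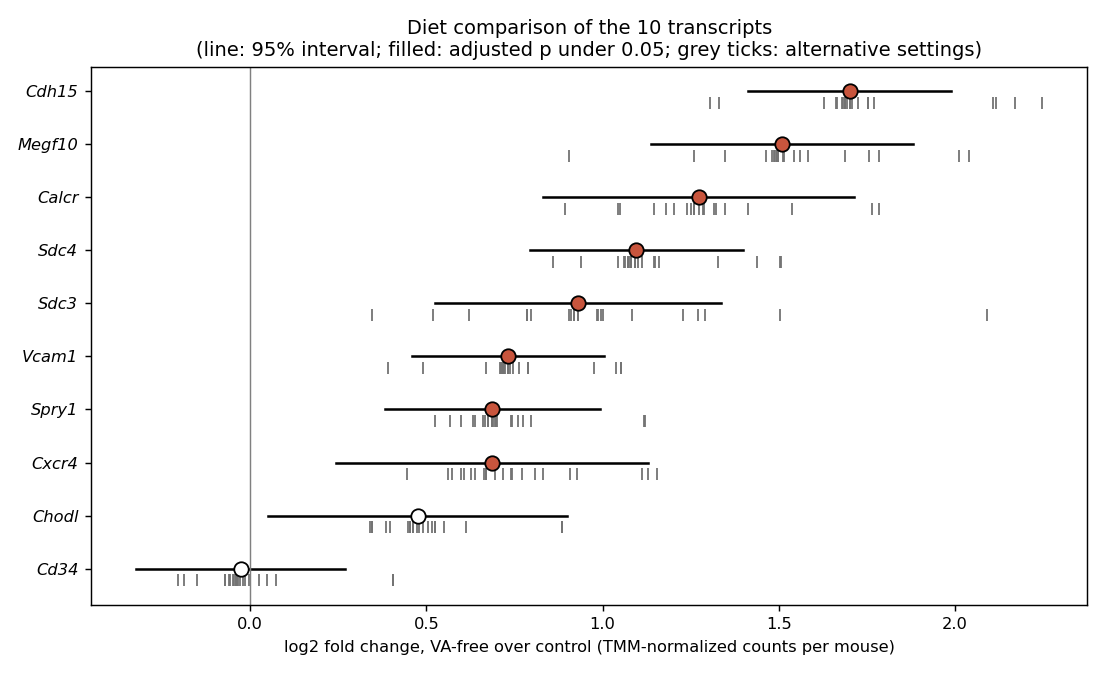
Log2 fold change (VA-free over control, x axis) of the 10 transcripts with its 95% interval (line). Filled dots passed an adjusted p of 0.05 and grey ticks give the value under each of 22 alternative settings. Cdh15 lay highest at 1.70 and Cd34 at -0.03, and the ticks of Cd34 fall on both sides of 0.

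Calcr (ENSMUSG00000023964.15, GRCm38 chromosome 6, 3685680 to 3764714, minus strand) encodes a G protein-coupled receptor that raises cyclic AMP. It stood at 259 CPM in VA-free library 1B, 240 in 2A, 299 in 3A and 296 in 3B, and at 84.8 CPM (1A), 94.3 CPM (1B), 163 CPM (2A) and 109 CPM (2B) on the control diet. All VA-free libraries were above all control libraries, the closest being VA-free 2A and control 2A. The mean was 269 ± 30.7 CPM (SD, n = 3 mice) against 111 ± 26.8 CPM (SD, n = 2), giving a log2 fold change of 1.27 (SE 0.19, edgeR adjusted p = 0.00205). With library 2B of the control diet left out, the value was 1.05 and the adjusted p 0.0506.

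Calcr reads were assigned mostly to a transcript that encodes 496 residues and starts at the downstream promoter (ENSMUST00000171613.7). It took 78.7% to 83.6% of the gene's estimated counts in the VA-free libraries and 81.0% to 87.4% in the control libraries, ranges that overlap. Forms of 533 residues were minor. ENSMUST00000170266.2, which starts inside the gene, took 9.10% to 13.2% against 8.58% to 11.1%. ENSMUST00000075644.12, which starts at 3764658, just inside the upstream RefSeq start at 3764713, took 0.661% to 1.27% against 1.43% to 2.84%. The share of the latter was thus lower in every VA-free library, at a low level. A form of 496 residues that starts at 3764714 (ENSMUST00000115622.7) took 0% to 0.433% against 0% to 0.497%. Reads shared by transcripts were divided by the authors' model, without an error estimate here, so all shares of this kind are a description.

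The promoters of both starts are shown because most Calcr counts belonged to the downstream start and few to the upstream start or just inside it. Each is the 250 bases before the RefSeq start on the minus strand of GRCm38.p6, at chr6:3763624-3763873 downstream, whose 3′ end reaches a few bases into the exon of that transcript, and at chr6:3764714-3764963 upstream. Capitals mark the E-box CACCTG.
Calcr, downstream start: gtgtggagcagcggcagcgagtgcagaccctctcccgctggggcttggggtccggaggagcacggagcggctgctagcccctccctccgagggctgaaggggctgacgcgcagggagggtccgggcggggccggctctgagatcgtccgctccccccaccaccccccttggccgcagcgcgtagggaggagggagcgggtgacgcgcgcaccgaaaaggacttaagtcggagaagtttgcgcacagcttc
Calcr, upstream start: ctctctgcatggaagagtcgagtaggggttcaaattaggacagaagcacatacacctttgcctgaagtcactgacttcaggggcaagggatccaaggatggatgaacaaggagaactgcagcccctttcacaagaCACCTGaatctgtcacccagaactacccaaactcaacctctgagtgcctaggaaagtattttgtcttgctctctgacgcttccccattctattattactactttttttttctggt
The E-box begins 115 bases before the upstream start. Motifs were counted in windows of 300 bases, of which the 250 before the start are printed. CACCTG is held on either strand by 20.2% of all 32851 RefSeq promoter windows. The printed downstream bases have a GC content of 70.8%, the upstream bases of 46.0%.

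The ligands and accessory proteins of Calcr moved in different directions. All 3 chains of collagen V rose. Col5a3 was at 1923, 1992 and 1906 CPM in the VA-free mice and at 203 and 145 CPM in the control mice (log2 fold change 3.48, SE 0.19, edgeR adjusted p = 0.000223). Col5a1 was at 563, 506 and 529 CPM against 90.7 and 111 CPM (log2 fold change 2.40, SE 0.15, edgeR adjusted p = 0.000226), and Col5a2 at 493, 517 and 563 CPM against 217 and 210 CPM (1.30, SE 0.12, edgeR adjusted p = 0.000451). The VA-free mice lay far above the control mice for each chain. The receptor activity-modifying proteins, which turn Calcr into a receptor for amylin, were lower. Endothelial, tenocyte and leukocyte markers summed lower too, and the part of such cells in these falls was not tested. Ramp1 fell by 5.48 on the log2 scale, from 16.0 to 0.367 CPM (edgeR adjusted p = 0.000224). Ramp3 fell by 4.21, from 4.21 to 0.228 CPM (edgeR adjusted p = 0.000588), and Ramp2 fell by 1.21, from 137 to 59.3 CPM (edgeR adjusted p = 0.00276). The calls of Col5a1, Col5a2, Col5a3, Ramp1 and Ramp3 held in all 22 alternatives, whereas Ramp2 kept its call in 19 and was at -1.07 without library 2B of the control diet (adjusted p = 0.0606). Gnas, which encodes the stimulatory G protein, was at 3708 ± 193 CPM (SD, n = 3) against 3605 ± 177 CPM (SD, n = 2), with overlapping mice (log2 fold change 0.04, edgeR adjusted p = 0.821).

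Cxcr4 (ENSMUSG00000045382.6, chromosome 1, 128588199 to 128592293, minus strand) encodes the receptor for Cxcl12. Its level was 44.1 CPM in VA-free 1B, 33.1 in 2A, 52.0 in 3A and 43.9 in 3B, and 30.5 CPM (1A), 22.7 CPM (1B), 15.9 CPM (2A) and 34.2 CPM (2B) on the control diet. The libraries overlapped, since control 2B lay above VA-free 2A, but the mice did not. The mean was 42.2 ± 7.99 CPM (SD, n = 3) against 26.3 ± 2.17 CPM (SD, n = 2), giving a log2 fold change of 0.69 (SE 0.19, edgeR adjusted p = 0.0243). This call was lost in 7 of 22 alternatives. Its value was 0.44 without library 2A of the control diet (adjusted p = 0.105), 0.93 without 2B (adjusted p = 0.0809), 0.60 without control mouse 2 (adjusted p = 0.0878), 0.64 without VA-free mouse 1 (adjusted p = 0.0819) and 0.57 without VA-free mouse 3 (adjusted p = 0.0811). With the replicate number as a block it was 0.56 (adjusted p = 0.0800). Cxcl12 fell by 0.67 on the log2 scale, from 182 and 108 CPM in the control mice to 84.0, 94.0 and 96.2 CPM (edgeR adjusted p = 0.0422), a call that held in 10 of 22 alternatives and was at -0.36 without library 2B (adjusted p = 0.635). Ackr3, a receptor that takes up the same chemokine, rose by 0.82 on the log2 scale, with 479, 554 and 579 CPM against 320 and 288 CPM (edgeR adjusted p = 0.00331).

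**Figure D2:**
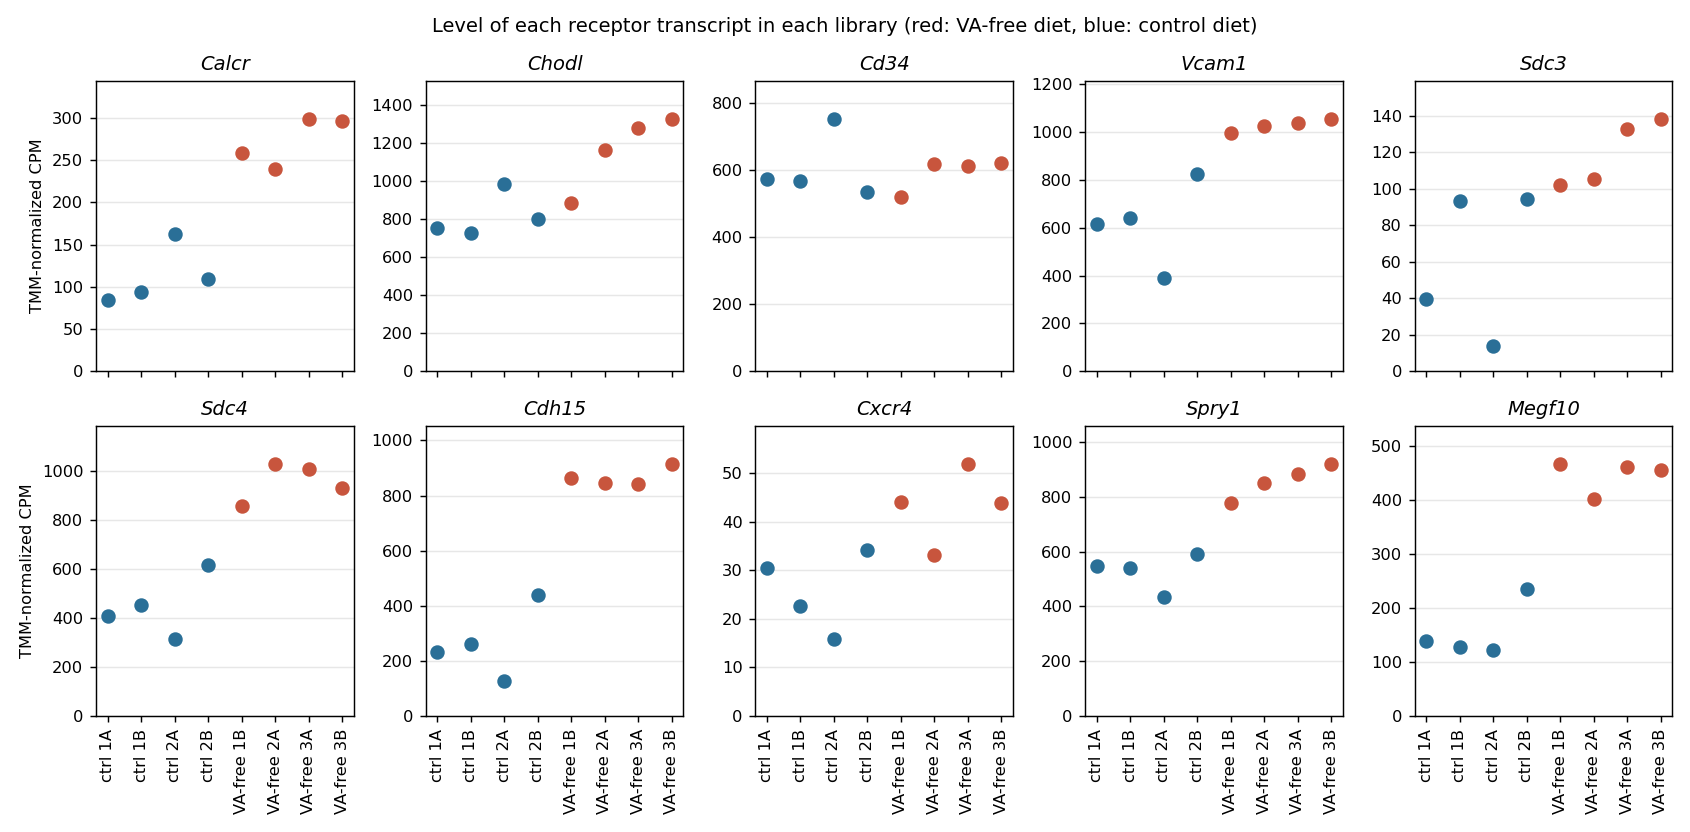
TMM-normalized CPM (y axes from 0, 1 panel per transcript) in each of the 8 libraries (x axis), VA-free in red and control in blue. The 4 VA-free libraries of Cdh15 lie between 842 and 916 CPM, all above the control libraries, whereas the diets overlap for Cd34, Chodl and Cxcr4.

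Cdh15 (ENSMUSG00000031962.6, chromosome 8, 122847966 to 122867397, plus strand) encodes M-cadherin, the calcium-dependent adhesion protein that joins the MuSC to its myofiber. Its log2 fold change was the highest of the 10, except without control library 2A, where Calcr had 1.41 and Cdh15 1.33. Its level was 865 CPM in VA-free 1B, 845 in 2A, 842 in 3A and 916 in 3B, and 234 CPM (1A), 262 CPM (1B), 128 CPM (2A) and 439 CPM (2B) on the control diet. Every VA-free library lay at nearly the same level and above every control library, while control 2B was 3.42-fold above control 2A. The mean was 875 ± 24.5 CPM (SD, n = 3) against 269 ± 19.3 CPM (SD, n = 2), giving a log2 fold change of 1.70 (SE 0.12, edgeR adjusted p = 0.000254). The call held in all 22 alternatives, with log2 fold changes of 1.31 to 2.25. Ensembl lists 1 transcript, of 784 residues, so no division between isoforms enters the value. Cdh2, the N-cadherin of the same contact, rose from 20.3 to 34.6 CPM (log2 fold change 0.77, SE 0.17, edgeR adjusted p = 0.0109), and was at 0.92 without library 2B (adjusted p = 0.0680).

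Vcam1 (ENSMUSG00000027962.14, chromosome 3, 116109949 to 116129688, minus strand) encodes an immunoglobulin-family adhesion protein that binds integrin α4β1 and is used to sort quiescent MuSCs. It was at 998 CPM in VA-free 1B, 1028 in 2A, 1038 in 3A and 1055 in 3B, and at 617 CPM (1A), 641 CPM (1B), 390 CPM (2A) and 825 CPM (2B) on the control diet. All VA-free libraries were above all control libraries and lay close together. The mean was 1037 ± 20.9 CPM (SD, n = 3) against 624 ± 35.6 CPM (SD, n = 2), giving a log2 fold change of 0.73 (SE 0.11, edgeR adjusted p = 0.00276). It passed the threshold in all 22 alternatives, with 0.49 without control library 2A and 0.39 after a trend with transcript length was removed. Of its counterpart integrin, Itgb1 was at 912 ± 24.6 CPM (SD, n = 3) against 776 ± 25.9 CPM (SD, n = 2) and did not pass (log2 fold change 0.23, edgeR adjusted p = 0.139, and 0.0454 without control library 2A), and Itga4 was at 1.95 and 3.18 CPM with overlapping mice (edgeR adjusted p = 0.2996).

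The full-length form of 739 residues (ENSMUST00000029574.12) took 93.6% to 94.8% of Vcam1 counts in the VA-free libraries and 88.7% to 90.5% in the control libraries. The form of 345 residues (ENSMUST00000196449.4) took 1.97% to 2.18% against 4.40% to 5.93%. Neither pair of ranges overlapped, and the short form had a higher share in every control library. On the scale of TPM, which corrects for transcript length, the ranges of the full-length form overlapped, at 82.0% to 85.7% against 71.0% to 83.6%.

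Cd34 (ENSMUSG00000016494.9, chromosome 1, 194938819 to 194961279, plus strand) encodes a sialomucin that marks quiescent MuSCs and is also carried by endothelial cells and fibro-adipogenic progenitors. It was at 520 CPM in VA-free 1B, 619 in 2A, 614 in 3A and 623 in 3B, and at 575 CPM (1A), 568 CPM (1B), 754 CPM (2A) and 535 CPM (2B) on the control diet. The diets overlapped throughout, and the highest library was control 2A. The mean was 593 ± 52.7 CPM (SD, n = 3) against 604 ± 17.7 CPM (SD, n = 2), giving a log2 fold change of -0.03 (95% interval -0.32 to 0.27, edgeR adjusted p = 0.885). Its sign depended on the setting: it was positive in 5 of 22 alternatives, 0.024 without TMM, 0.41 with TPM, 0.047 with VA-free mouse 1 left out and 0.072 with library 2A of the control diet left out. Endothelial markers, which share cells with Cd34, summed higher in every control library, and their part in the level of Cd34 was not tested. The full-length form of 382 residues took 64.4% to 68.1% of the counts in the VA-free libraries and 62.6% to 72.3% in the control libraries. The form of 325 residues, which lacks most of the tail inside the cell, took 31.4% to 35.0% against 26.7% to 37.1%, so the ranges of both forms overlapped.

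Chodl (ENSMUSG00000022860.15, chromosome 16, 78930948 to 78951733, plus strand) encodes chondrolectin, a membrane protein with a C-type lectin domain. It was at 886 CPM in VA-free 1B, 1162 in 2A, 1278 in 3A and 1328 in 3B, and at 757 CPM (1A), 730 CPM (1B), 984 CPM (2A) and 801 CPM (2B) on the control diet. The mice did not overlap, but VA-free library 1B lay below control library 2A. The mean was 1131 ± 209 CPM (SD, n = 3) against 814 ± 61.7 CPM (SD, n = 2), and the log2 fold change of 0.47 did not pass the threshold (95% interval 0.05 to 0.90, edgeR adjusted p = 0.0733). It passed in 7 of 22 alternatives: 0.46 with DESeq2 (adjusted p = 0.0434), 0.52 without TMM (adjusted p = 0.0419), 0.51 with the 8 libraries as separate samples (adjusted p = 0.0364), 0.61 without VA-free mouse 1 (adjusted p = 0.0332), 0.52 without library 2A of the control diet (adjusted p = 0.0423) and 0.88 with TPM at either pseudocount.

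Chodl is the only member whose promoter window held TGGGAA, the core bound by the Notch effector Rbpj, on either strand, among the 9 windows of the 8 members matched in RefSeq (GRCm38.p6). The sequence, from chr16:78930698-78930947 on the plus strand, is printed with this core in capitals.
Chodl: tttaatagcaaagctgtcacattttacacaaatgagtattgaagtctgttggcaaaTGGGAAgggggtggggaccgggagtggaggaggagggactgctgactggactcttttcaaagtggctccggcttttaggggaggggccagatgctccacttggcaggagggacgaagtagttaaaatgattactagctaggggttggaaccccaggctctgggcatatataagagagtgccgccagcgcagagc
The core begins 194 bases before the start, and 25.6% of all windows hold it. The E-box CAGCTG, which 16.3% of all windows hold, was in none of the 9.

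Sdc4 (ENSMUSG00000017009.3, chromosome 2, 164424247 to 164443887, minus strand) and Sdc3 (ENSMUSG00000025743.14, chromosome 4, 130792537 to 130826319, plus strand) encode heparan sulfate proteoglycans that serve as co-receptors for FGF and, for Sdc3, Notch signaling. Sdc4 was at 859 CPM in VA-free 1B, 1032 in 2A, 1008 in 3A and 932 in 3B, and at 409 CPM (1A), 453 CPM (1B), 314 CPM (2A) and 617 CPM (2B) on the control diet. Each VA-free library was above each control library, while control 2B was 1.96-fold above control 2A. The mean was 965 ± 79.0 CPM (SD, n = 3) against 451 ± 9.85 CPM (SD, n = 2), giving a log2 fold change of 1.10 (SE 0.13, edgeR adjusted p = 0.000878), and the call held in all 22 alternatives.

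Sdc3 was at 102 CPM in VA-free 1B, 105 in 2A, 133 in 3A and 138 in 3B, and at 39.7 CPM (1A), 93.4 CPM (1B), 13.8 CPM (2A) and 94.4 CPM (2B) on the control diet. The libraries did not overlap, yet control 1B and 2B came close to VA-free 1B, and the technical libraries of a control mouse differed by 2.35-fold and 6.86-fold. The means over mice were 116 ± 18.8 CPM (SD, n = 3) against 60.7 ± 8.80 CPM (SD, n = 2), giving a log2 fold change of 0.93 (SE 0.17, edgeR adjusted p = 0.00520). The spread within a control mouse does not enter this p, since its libraries were added. The same holds for the SD, SE and p of the other transcripts, Sdc4, Vcam1 and Cdh15 included. With the 8 libraries as separate samples the adjusted p of Sdc3 was 0.146. The fold change on the log2 scale was 0.62 without library 1A of the control diet (adjusted p = 0.116), 0.52 without 2A (adjusted p = 0.0677), 1.503 without 2B (adjusted p = 0.142) and 0.35 after a trend with transcript length was removed (adjusted p = 0.187). With 1 library per mouse, the first by letter, it was 2.09.

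Of the promoters examined, that of Sdc4 alone held AGGTCA, the hexamer bound by retinoic acid receptors, and it is shown for that reason with the hexamer in capitals. The printed bases lie at chr2:164443189-164443438 on the minus strand of GRCm38.p6.
Sdc4: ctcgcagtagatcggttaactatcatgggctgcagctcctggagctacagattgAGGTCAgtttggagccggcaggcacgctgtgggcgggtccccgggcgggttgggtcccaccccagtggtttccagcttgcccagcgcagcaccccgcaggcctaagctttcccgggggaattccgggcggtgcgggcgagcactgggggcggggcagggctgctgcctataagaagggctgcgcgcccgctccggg
AGGTCA begins 196 bases before the start, and 16.3% of all windows hold it on either strand. Direct repeats of the hexamer with a spacer of 1, 2 or 5 bases were in none of the 9 windows and in 0.222%, 0.268% and 0.0974% of all windows.

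Megf10 (ENSMUSG00000024593.15) encodes a receptor with many EGF-like repeats that acts in MuSC proliferation and adhesion. It was at 467 CPM in VA-free 1B, 402 in 2A, 461 in 3A and 456 in 3B, and at 140 CPM (1A), 128 CPM (1B), 123 CPM (2A) and 235 CPM (2B) on the control diet. The VA-free libraries were all above the control libraries, of which 2B stood apart from the other 3. The mean was 448 ± 39.9 CPM (SD, n = 3) against 157 ± 26.4 CPM (SD, n = 2), giving a log2 fold change of 1.51 (SE 0.16, edgeR adjusted p = 0.000605). It passed in all 22 alternatives and was 0.90 after the trend with length was removed. A transcript of 1061 residues whose annotated end is incomplete (ENSMUST00000139892.1) took 23.8% to 25.8% of the counts in the VA-free libraries and 0% to 24.4% in the control libraries, with the 0% in control 2A. Gulp1, an adaptor of engulfment receptors named here after its values were seen, was at 37.4 and 38.9 CPM (edgeR adjusted p = 0.721).

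Spry1 (ENSMUSG00000037211.12, chromosome 3, 37639947 to 37644598, plus strand), the inhibitor of receptor tyrosine kinase signaling that MuSCs need to return to quiescence, was at 777 CPM in VA-free 1B, 852 in 2A, 882 in 3A and 922 in 3B, and at 547 CPM (1A), 540 CPM (1B), 433 CPM (2A) and 590 CPM (2B) on the control diet. No library of a diet reached those of the other. The mean was 854 ± 60.0 CPM (SD, n = 3) against 531 ± 44.8 CPM (SD, n = 2), giving a log2 fold change of 0.69 (SE 0.13, edgeR adjusted p = 0.00550). With the replicate number as a block it was 0.64 with an adjusted p of 0.0532. Of the FGF receptors, whose signaling it dampens, Fgfr4 and Fgfr1 rose as well. Fgfr4 was at 982, 1070 and 1035 CPM in the VA-free mice and 363 and 344 CPM in the control mice (log2 fold change 1.54, SE 0.12, edgeR adjusted p = 0.000309), and Fgfr1 at 658, 706 and 734 CPM against 289 and 252 CPM (1.37, SE 0.13, edgeR adjusted p = 0.000458), and both calls held in all 22 alternatives. The other proteins listed for Spry1, named here after their values were seen, were mixed. Frs2, Cbl and Etv5 rose, the last 2 not without control library 2B, and Grb2, Dusp6 and Etv4 did not pass. All 3 Spry1 transcripts encode the same 313 residues.

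Levels of different genes can be set side by side only per length, for which the authors' TPM was used. On the control diet the order was Chodl at 597 ± 64.2 TPM (SD, n = 2), Cd34 at 336 ± 19.2, Vcam1 at 298 ± 16.1, Spry1 at 295 ± 12.3, Sdc4 at 257 ± 19.9, Cdh15 at 115 ± 14.2, Calcr at 46.8 ± 12.6, Megf10 at 34.7 ± 7.21, Cxcr4 at 27.7 ± 1.43 and Sdc3 at 17.6 ± 1.85. Of the neighbours in this order, the mice of Vcam1 and Spry1 and those of Calcr and Megf10 overlapped. On the VA-free diet Chodl was again the most abundant, at 1109 ± 173 TPM (SD, n = 3), followed by Sdc4 at 731 ± 46.7, Spry1 at 641 ± 27.0, Vcam1 at 619 ± 18.2, Cdh15 at 497 ± 20.1 and Cd34 at 445 ± 26.9. Calcr at 159 ± 15.3 TPM, Megf10 at 142 ± 13.6, Cxcr4 at 62.3 ± 9.65 and Sdc3 at 42.8 ± 5.90 came last, as in control. The mice of Spry1 and Vcam1 and those of Calcr and Megf10 overlapped here too. By the means, Cd34 thus stood next to Chodl on the control diet, but below Sdc4, Spry1, Vcam1 and Cdh15 on the VA-free diet. Its control rank did not hold in every library. In control 2B, Cd34 at 329 TPM lay below Vcam1 at 427, Sdc4 at 387 and Spry1 at 360. In control 2A, Cd34 was at 370 TPM and Vcam1 at 146. By mean TPM Chodl ranked 204 among 17997 genes on the control diet and 90 on the VA-free diet, and Cdh15 1435 and 274.

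**Figure D3:**
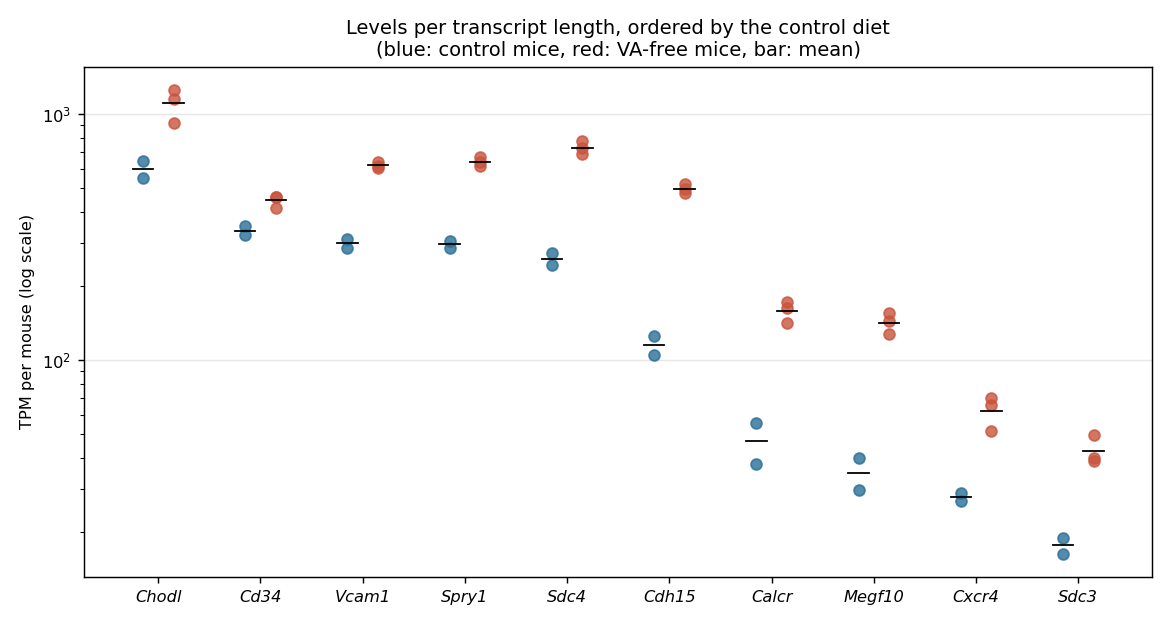
TPM per mouse (y axis, log scale) of the 10 transcripts, ordered by the control mean, with control mice in blue, VA-free mice in red and the mean as a bar. For Cd34 the VA-free mice (414 to 462 TPM) lie above the control mice (322 and 349 TPM) although its TMM-normalized CPM overlap.

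The transcripts were also set against 3 other genes of the MuSC, the transcription factors Pax7 and Myf5 and the laminin receptor Itga7, by the log2 ratio of a transcript to their geometric mean in the same mouse. These 3 were chosen after values had been seen, and all were higher on the VA-free diet: Pax7 from 78.1 to 132 CPM (log2 fold change 0.76, SE 0.19, edgeR adjusted p = 0.0194), Myf5 from 74.5 to 189 CPM and Itga7 from 324 to 807 CPM. The call for Pax7 held in 16 of 22 alternatives and that for Itga7 in 19. Without library 2B of the control diet both were lost, at 0.85 (adjusted p = 0.0537) and 1.88 (adjusted p = 0.128). Over the alternatives the log2 fold change of Pax7 ran from 0.16 to 1.22. Its call was also lost with the trend with length removed and with VA-free mouse 1 or VA-free mouse 2 left out. The same was so with either control mouse left out, which leaves no spread between mice on the control diet. Relative to them, 2 transcripts were higher in every VA-free mouse, Cdh15 by 0.57 and Megf10 by 0.38 on the log2 scale. Calcr, Sdc4 and Sdc3 overlapped between the diets, with differences of 0.15, -0.04 and -0.21. The other 5 stood lower relative to them in every VA-free mouse: Cd34 by 1.16, Chodl by 0.67, Cxcr4 by 0.47, Spry1 by 0.45 and Vcam1 by 0.40. Since the 3 genes themselves rose, a transcript without a change lands well below 0 on this scale. Cd34 is such a case, with a log2 fold change of -0.03, and Cxcr4, Spry1 and Vcam1 were called higher by their own fold changes. By library rather than by mouse, only Cdh15 stayed entirely higher and only Cd34, Chodl, Spry1 and Vcam1 entirely lower. By construction the order of these differences is that of the fold changes, and no test was run on them. The share of all genes that lie apart between the diets on this scale was not computed. The counts are thus a description and not a result about these transcripts.

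**Figure D4:**
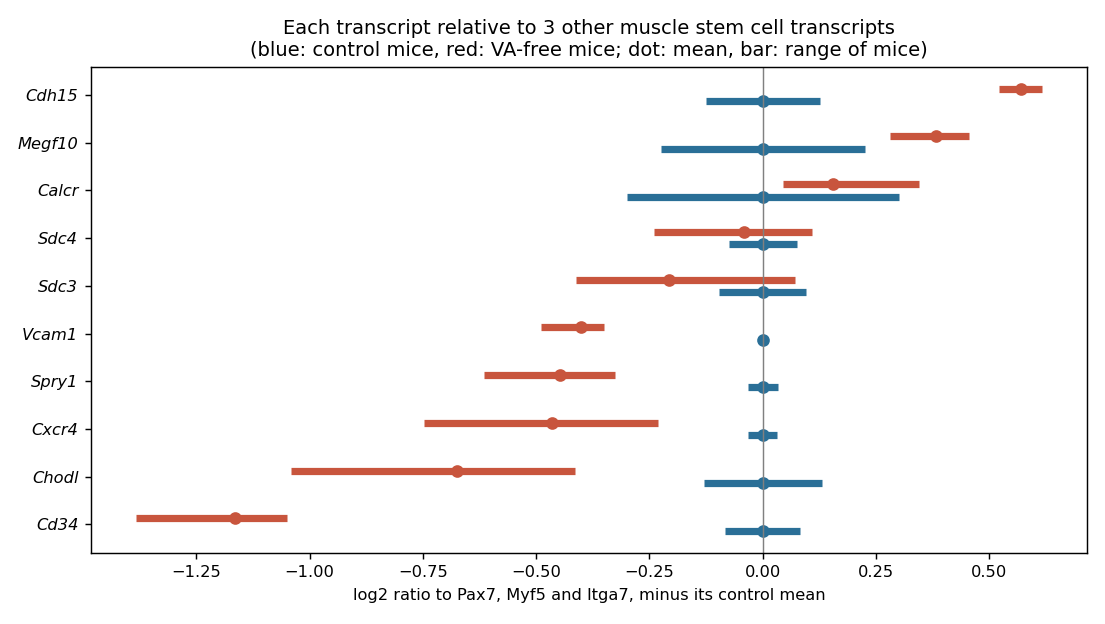
Log2 ratio of each transcript to the geometric mean of Pax7, Myf5 and Itga7, minus its control mean (x axis), with dots for the mean and bars for the range over mice, control in blue and VA-free in red. Cdh15 and Megf10 lie above the control range and Cd34, at -1.16, lies farthest below it.

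Of 58 tested ligands, counter-receptors, co-receptors and signaling proteins listed for the 10, 23 rose, 15 fell and 20 did not pass, with a median log2 fold change of 0.27. Without library 2B of the control diet 11 rose and 9 fell, and with TPM 31 rose and 10 fell. Besides those described, Notch3 rose from 125 to 861 CPM (log2 fold change 2.78, SE 0.19, edgeR adjusted p = 0.000236), and the Wnt receptor Fzd7, which pairs with Sdc4, from 10.8 to 23.3 CPM (1.12, SE 0.16, edgeR adjusted p = 0.00179). Fzd7 was at 1.69 without library 2B (adjusted p = 0.0945). The shares of all genes called higher and lower, 18.9% and 22.5%, stand beside these counts, and no test compared the lists.

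**Figure D5:**
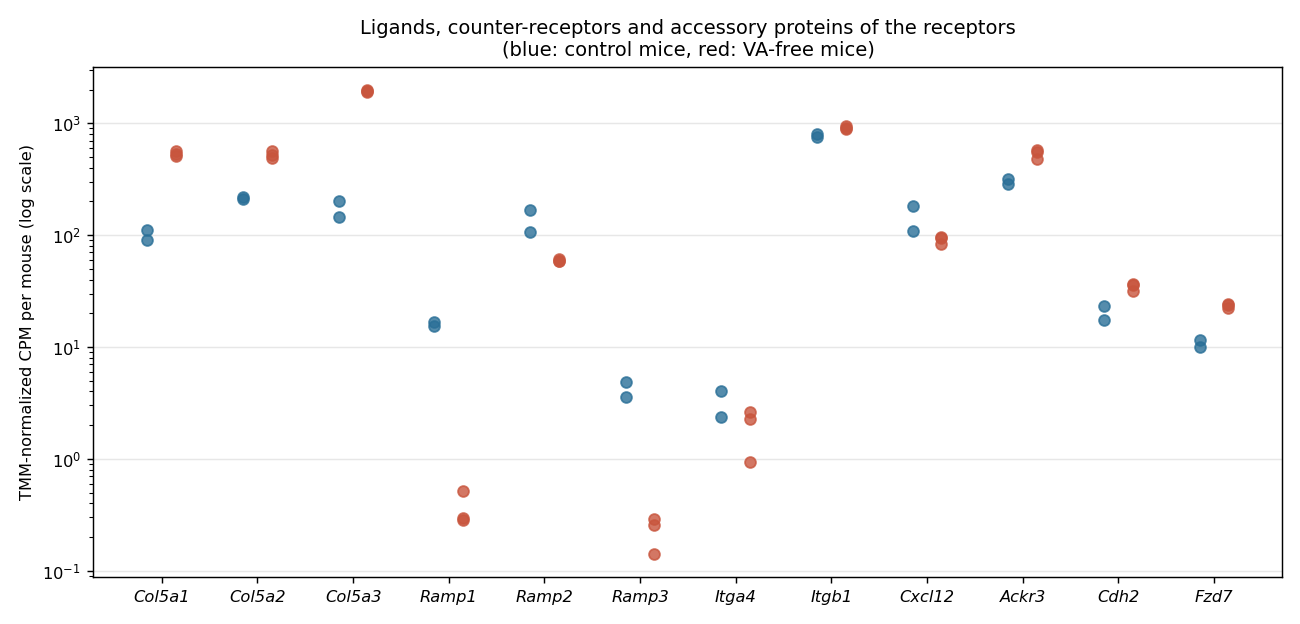
TMM-normalized CPM per mouse (y axis, log scale) of collagen V chains, receptor activity-modifying proteins and other partners, with control mice in blue and VA-free mice in red. The collagen V chains lie higher and Ramp1, Ramp2, Ramp3 and Cxcl12 lower in all VA-free mice, and Itga4 overlaps.

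Among 24 tested relatives by family (other syndecans, Sprouty and Spred genes, cadherins, Icam genes and chemokine receptors) 3 rose, 11 fell and 10 did not pass, with a median log2 fold change of -0.89. Among all genes 18.9% were called higher and 22.5% lower. Without library 2B of the control diet 7 of 23 relatives fell. The median was -0.49 without control mouse 1, and -0.20 or -0.33 with TPM at a pseudocount of 1 or 0.1. Cdh5, named after its values were seen, is also in the endothelial list, which was lower on the VA-free diet, and the part of other cells was not tested. Spry4 rose from 64.1 to 138 CPM (1.10, edgeR adjusted p = 0.00150) and Spred1 from 75.6 to 169 CPM (1.16, edgeR adjusted p = 0.000458), both inhibitors of the same kind as Spry1. Cdh4, named after its values were seen, was the third. In contrast to Sdc3 and Sdc4, Sdc1 fell from 103 to 53.7 CPM (edgeR adjusted p = 0.0178), a call that held in 16 of 22 alternatives and was at -0.83 without library 2B of the control diet (adjusted p = 0.133). Sdc2 was at 167 and 168 CPM (edgeR adjusted p = 0.965), with a sign that depended on the setting. Icam1, an adhesion protein of the same superfamily as Vcam1, fell from 353 to 58.4 CPM (edgeR adjusted p = 0.00143), and Cdh13 did not pass (edgeR adjusted p = 0.435).

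Of 32 other genes known from the MuSC surface or its quiescence, 21 rose and 2 fell, with a median log2 fold change of 0.91, beside 0.83 for the 10 receptors. Without library 2B of the control diet 12 rose. The laminin and dystrophin partner Dag1 rose from 1848 to 3877 CPM (1.07, edgeR adjusted p = 0.000739) and Des, an intermediate filament, from 494 to 1125 CPM (1.19, edgeR adjusted p = 0.00178, and 0.122 without 2B). Those that fell were the tetraspanin Cd9, from 1013 to 606 CPM (edgeR adjusted p = 0.00374), and Tek, from 208 to 132 CPM (edgeR adjusted p = 0.00503), which the endothelial list holds too. Neither was called with TPM. Gpx3 and Cav1 did not pass. Of 21 genes of activation and the cell cycle, 3 rose and 4 fell, shares below the 18.9% and 22.5% of all genes, with a median of -0.10. With TPM 6 or 7 rose and 2 fell, by pseudocount, and the median turned to 0.39 and 0.40. Fosb and Egr1 rose, as did Myod1, from 109 to 192 CPM (edgeR adjusted p = 0.0165), and Fos, Dusp1, Pcna and Ccnd2 fell. The calls of Pcna and Ccnd2 held in all 22 alternatives, that of Myod1 in 20, those of Fosb and Dusp1 in 19, that of Egr1 in 14 and that of Fos in 10. Fosb and Egr1 lost theirs without control library 2B, and Myod1 and Dusp1 without 2A. Without library 2B of the control diet 1 rose and 3 fell. Myod1, Pcna and Ccnd2 are named after their values were seen. The list of MuSC markers, 7 of whose 10 genes are among the receptors, had 9 higher and 0 lower, and its summed level was 2746 to 4267 CPM summed in the control libraries and 6210 to 7151 CPM in the VA-free libraries.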

How the data were processed

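Sorted MuSCs were profiled by SMART-Seq v4 and Nextera XT libraries, read as 75 bp single ends. Per the submitters' processing notes and the methods, the authors deposited, per transcript and library, estimated counts (not normalized) and TPM from kallisto 0.46.2 on Ensembl 96 transcripts of GRCm38. TPM keeps no depth. Estimated counts were added per gene and per mouse and rounded to whole numbers, and transcripts without a gene, 0.647% to 0.756% of the counts, were left out. The diets were compared with edgeR 4.0.16 (TMM, its expression filter, quasi-likelihood test) in R 4.3.3, after a test on simulated data. The SE is the size of the log2 fold change divided by the square root of F. Alternatives used DESeq2 1.42.0, limma 3.58.1, other scalings, TPM, length, technical letters, the replicate number as a block and samples left out. Adjusted p-values without a tool named are from edgeR. Motifs were searched on both strands of RefSeq promoter windows of 300 bases. The members and lists were chosen with earlier results of these data known. Besides the 10 members, Pax7 and partners fixed by name, the text names from each list up to 4 of the most abundant genes past the threshold and up to 2 not past it. Replicate numbers are not said to pair animals.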

Additional observations from a re-analysis of the deposited data

Results flagged for a closer look

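Among 20 groups of 4 libraries examined (10 transcripts in 2 diets), 2 held a library far from the other 3, and chance flags about 1 group in 20 where samples are independent. These libraries are not, since some share a mouse, so that rate does not apply as such. Cd34 was at 520 CPM in VA-free library 1B, with a gap to the next library of 0.912 of the group's range. Megf10 was at 235 CPM in control library 2B, with a gap of 0.850 of the range, still below every VA-free library.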

How the results depend on the processing

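Over 220 pairs of a transcript and an alternative, 194 kept direction and call, 14 lost the call, 7 gained it and 5 changed sign, all 5 for Cd34 (0.024 without TMM, 0.41 with TPM at either pseudocount, 0.047 without VA-free mouse 1 and 0.072 with library 2A of the control diet left out, within a range of -0.20 to 0.072 over the mice or libraries left out), and the cause was not tested. The number of the 10 called higher was 5 to 8 when mice or libraries were left out, the 5 being without control library 2B, and 0 were called lower in every alternative run. Over all genes the number higher was 3403 and the number lower 4056. With TPM they were 5799 and 2637 (pseudocount 1) or 5867 and 2631 (0.1), with the first library of each mouse 2156 were higher, and with mice or libraries left out 1613 (without control library 2B) to 3678. With the replicate number as a block 6 of the 10 were called higher, without Cxcr4 and Spry1, and 2339 genes were higher and 2903 lower. The deviations of same-numbered mice had correlations of -0.065 and 0.010 over 17997 genes, so the numbers were not shown to pair the mice. On TPM the isoform shares moved, for example for the Vcam1 form of 345 residues to 2.56% and 5.81%. Only 2 control mice, whose technical libraries differed, limit every comparison.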
